A study of Mus musculus with 18 samples.

Results

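RNA was sequenced from germinal center B cells (GCB) of mice whose B lineage either kept or deleted Dnmt3a and Dnmt3b, the enzymes of de novo DNA methylation. The comparison rests on 6 of the 18 libraries of the series, 3 Dnmt3-deficient and 3 Dnmt3-sufficient, taken by their labels. The other 12 libraries are naive B cells (nB) and bone marrow plasma cells (BMPC) of both genotypes, 6 of each. The nB came from unimmunized mice in the study, and the BMPC from mice 30 days after immunization. Dnmt3-deficient mice were Dnmt3afl/fl Dnmt3bfl/fl with 1 B lineage Cre allele (cre/wt), and Dnmt3-sufficient mice were Dnmt3afl/fl Dnmt3bfl/fl without it (wt/wt), so that floxed alleles were shared and the controls carried no Cre. The strain is labelled as mixed, B6;129S4, with the floxed alleles Dnmt3atm3.1Enl and Dnmt3btm5.1Enl, although the methods of the study designate the Dnmt3a allele differently. Effects of the Cre allele and of the loss of Dnmt3a and Dnmt3b therefore cannot be told apart. The GCB were lymph node B220+ Fas+ GL7+ cells that bound phycoerythrin (PE), sorted 30 days after immunization with PE. In the study PE was given in complete Freund's adjuvant. Each genotype had 2 libraries from females and 1 from males. Each of these GCB libraries pooled a pair of mice in the study, young adults at the start. Each was made from 5000 cells with 13 cycles of cDNA and 12 cycles of library amplification.

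Germinal centers are the sites where activated B cells divide, mutate their antibody genes and are selected by T cells for antigen binding. In the dark zone the cells cycle and mutate these genes, and in the light zone they present antigen to follicular helper T cells and compete for help. Bcl6 holds the program together, and Prdm1 ends it when a cell becomes a plasma cell. Dnmt3a and Dnmt3b add methyl groups to CpG dinucleotides that were not methylated before, whereas Dnmt1 with Uhrf1 copies methylation after replication.

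The values were deposited as FPKM, reads scaled by gene length in exons and by the library total. Depth was even across the GCB libraries, at 7644544 to 8903872 reads on listed genes, against 6692516 to 8987922 in nB and 1355231 to 3803197 in BMPC. The markers matched the label of the cells. All 10 preset B cell markers and all 10 germinal center markers passed the filter on low values, which kept genes with FPKM above 1 in at least 2 of the 6 libraries. The B cell markers summed to 4734 to 5266 FPKM in Dnmt3-sufficient and 4937 to 5203 FPKM in Dnmt3-deficient libraries, and the germinal center markers to 1553 to 1665 and 1658 to 1693 FPKM. Fas is part of the sort gate and its level is no finding. Most genes of other cells were low, but hemoglobin genes, described below, were not. Of these, Hbb-bh1 reached 40.0 FPKM in a Dnmt3-deficient library. The 10 follicular dendritic and stromal markers summed to 13.3 to 28.9 FPKM in Dnmt3-sufficient and 8.14 to 25.1 FPKM in Dnmt3-deficient libraries. The 10 neutrophil markers were at 0 in all 6 libraries, 10 of 13 macrophage markers and 7 of 8 NK cell markers stayed under 1 FPKM in all 6, and Cd3e, which defines T cells, reached at most 2.16 FPKM. The 14 T cell markers summed to 79.9 to 120.0 FPKM in Dnmt3-sufficient and 94.6 to 137 FPKM in Dnmt3-deficient libraries, nearly all of it Lck. The 8 dendritic cell markers summed to 16.6 to 20.7 FPKM and 27.8 to 32.5 FPKM, which do not overlap between the genotypes. That sum was nearly all Flt3, the receptor for a hematopoietic growth factor, while 5 of the 8 stayed under 1 FPKM in all 6 libraries.

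The targeted genes gave no check of the genotype in these cells. Dnmt3a was at 0.378, 0.289 and 0.0232 FPKM in Dnmt3-sufficient against 0.362, 0.213 and 0.22 FPKM in Dnmt3-deficient libraries, and Dnmt3b was at 0, 0.676 and 0.303 FPKM in Dnmt3-sufficient against 1.1, 0.805 and 0.744 FPKM in Dnmt3-deficient libraries. Both genes were thus barely expressed in GCB of either genotype, and a value over the whole gene does not show whether the floxed exons are missing. In nB, where Dnmt3a was higher, it was at 5.18, 3.48 and 2.35 FPKM in Dnmt3-sufficient and 4.33, 2.24 and 3.86 FPKM in Dnmt3-deficient libraries, which overlap. The maintenance enzymes were well expressed. Uhrf1 was at 167, 182 and 176 FPKM in Dnmt3-sufficient against 152, 169 and 168 FPKM in Dnmt3-deficient libraries, and its difference of -0.10 on the log2(FPKM + 1) scale had a 95% interval of -0.37 to 0.17. Dnmt1 was at 52.2, 63.6 and 55.1 FPKM in Dnmt3-sufficient against 56.5, 58.9 and 85.4 FPKM in Dnmt3-deficient libraries, with an interval of -0.21 to 0.63. The labelled sexes matched, since Eif2s3y, a Y-linked translation factor, was at 78.6, 0 and 0 FPKM in Dnmt3-sufficient against 88.8, 0 and 0 FPKM in Dnmt3-deficient libraries, with the male library first. In all such sentences on GCB the libraries are replicates 1 (male), 2 and 3 (female) in turn, and in other cells the order has no meaning.

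The first question was whether losing Dnmt3a and Dnmt3b altered the transcriptome of GCB. No gene could be called different between the genotypes. In a limma fit to the 6 libraries on log2(FPKM + 1), 0 of 9840 tested genes (0%) reached a Benjamini-Hochberg adjusted p of 0.05 with a difference of at least 1, and the lowest adjusted p was 0.389. Without adjustment, 578 genes had a p under 0.05, 5.87% of those tested, 284 of them higher and 294 lower in Dnmt3-deficient GCB. voom on the recovered reads, which weights each value by the precision expected at its read count, also called 0. The 3 Dnmt3-deficient libraries lay above all 3 Dnmt3-sufficient ones for 577 genes, 5.86% of those tested, and below for 549, 5.58%. The median difference over all tested genes was 0.0081. These p-values measure the spread between pools of mice.

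A missing call is not a missing difference, so the size of difference that the data could exclude was measured for each gene. The margin of a gene is the distance from its difference to either end of the 95% interval, on the log2(FPKM + 1) scale. The median margin was 0.68, a factor of 1.61, and 10% of genes had a margin under 0.36 and 10% over 1.09. A difference of 2-fold or more in either direction could be excluded for 5996 genes, 60.9% of the 9840 (equivalence test on the same fit, Benjamini-Hochberg adjusted p of 0.05 or less). A difference of 1.5-fold or more could be excluded for 396 genes. For 2-fold the count of 5996 fell to 4694 by voom on the recovered reads and to 4603 with 0.1 FPKM added in place of 1. The interval allowed more than 4-fold for 347 genes, and it lay wholly past 2-fold for 7 genes, which were Pde2a, Trim12a, Hbb-b1, Hbb-bh1, Gpat2, Snord45b and Snord53. Of these, Snord45b and Snord53 rested on few reads, given below. By the same measure nB allowed exclusion of a 2-fold difference for 2725 of 10257 genes and BMPC for 13 of 8724, with median margins of 0.91 and 2.34. Of the 3 cell types GCB thus had the narrowest intervals. The largest difference allowed for a single gene, given below as a fold, is the end of its 95% interval farther from 0 in the fit to the 6 GCB libraries. Over 78 core genes of the function lists its median was 1.57-fold, and it was within 2-fold for 65. These bounds depend on the fit: with the 12 nB and GCB libraries the median was 1.74-fold and 53 were within 2-fold, and with all 18 libraries, which share 1 spread, it was 2.51-fold and 20. They also depend on the scale. The highest bound among the 78 was 4.12-fold here, 19.8-fold with 0.1 FPKM added in place of 1, and 51.7-fold by voom on the recovered reads.

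Precision depended on the level of the gene. Among 983 genes with a mean over 100 FPKM, a 2-fold difference was excluded for 974, and the median margin was 0.31. Of 1626 genes at 30 to 100 FPKM it was excluded for 1555, and of 2326 genes at 10 to 30 FPKM for 1843. At 1 to 3 FPKM it was excluded for 366 of 1787 genes. Low genes are held close together by the added 1 FPKM, which understates their change, and on recovered reads the same 1787 genes had a median margin of 1.76 in place of 0.96 and 54 exclusions. For the 4935 genes with a mean of at least 10 FPKM both ways of measuring gave a large share, 4372 genes (88.6%) on log2(FPKM + 1) and 3976 (80.6%) by voom.

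**Figure D1:**
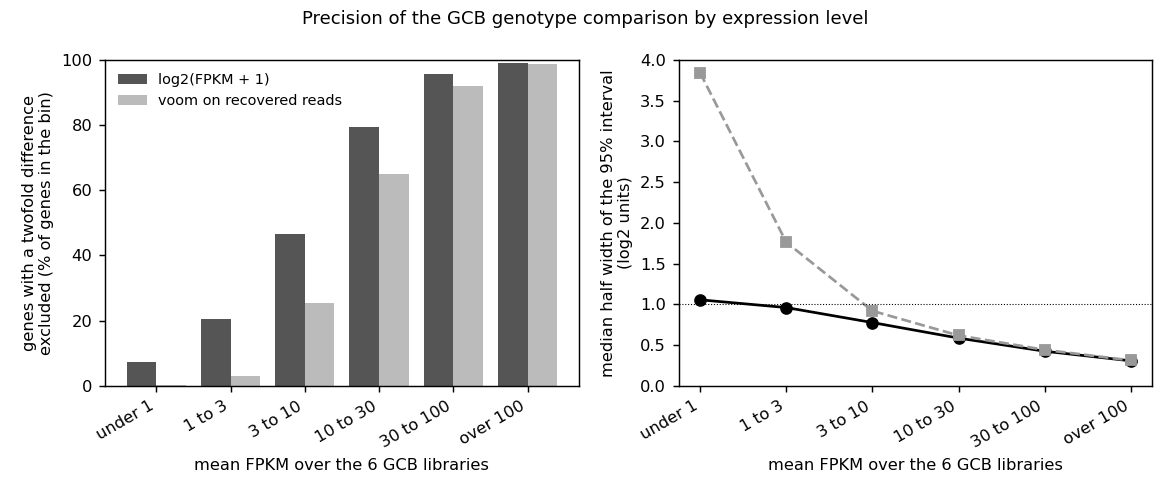
Left, percent of tested genes for which a 2-fold difference between the genotypes was excluded, by mean FPKM over the 6 GCB libraries, on log2(FPKM + 1) (dark bars) and by voom on recovered reads (light bars). Right, median margin of the 95% interval in log2 units for the same bins (circles, log2(FPKM + 1), and squares, voom), with a dotted line at 1. The share rises from 7.43% under 1 FPKM to 99.1% over 100 FPKM, and the share by voom is lower in every bin, by the most at 3 to 10 FPKM (46.6% and 25.3%).

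The genes that carry out the functions of the germinal center were measured with more precision than the average gene. Lists for 16 functions held 415 genes, of which 396 passed the filter. Of these 396, 0 were called, 33 (8.33%) had an unadjusted p under 0.05 beside 5.87% of all tested genes, and a 2-fold difference was excluded for 304 (76.8%) beside 60.9%. Their median difference was 0.0058, their median margin 0.51, and the medians of the 16 lists ran from -0.20 to 0.23. In 27 of them (6.82%) the Dnmt3-deficient libraries lay above all Dnmt3-sufficient ones and in 29 (7.32%) below, close to the 5.86% and 5.58% of all genes. By list, the share with a 2-fold difference excluded ran from 33.3% of naive and memory genes to 97.5% of mitosis genes. It was also under the 60.9% of all genes for positioning (56%), survival (60%) and plasma cell genes (60%). The part of expression level in these shares was not tested.

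**Figure D2:**
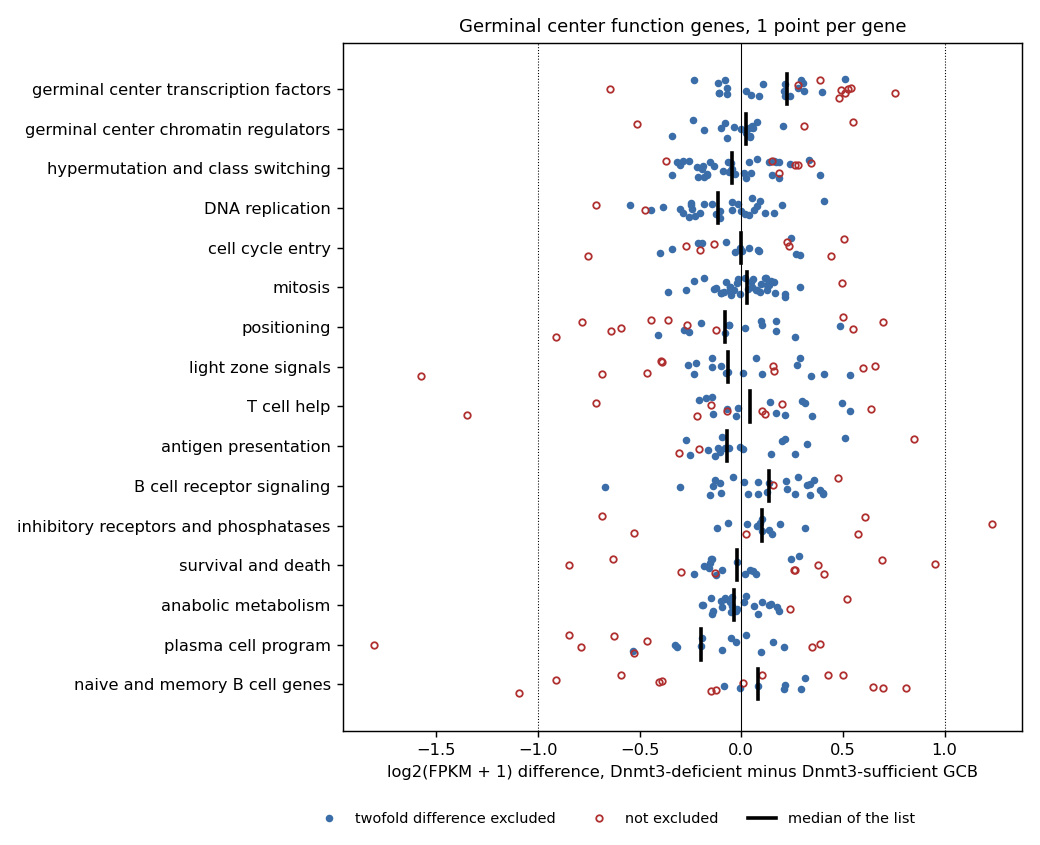
Difference between the genotypes in GCB for each tested gene of 16 germinal center function lists, Dnmt3-deficient minus Dnmt3-sufficient, on the log2(FPKM + 1) scale. Filled points are genes with a 2-fold difference excluded, open points are the others, thick bars are list medians and dotted lines mark 2-fold. The medians lie between -0.20 and 0.23, and the outermost genes, such as Ly6c2 at -1.81, are open points.

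Of the transcription factors that set the germinal center program, all 30 were expressed above the filter in both genotypes. A 2-fold difference was excluded for 21, and the list median was 0.23, with 22 positive and 8 negative differences. Bcl6, the repressor that the program depends on, was at 34.3, 30.5 and 37.2 FPKM in Dnmt3-sufficient against 44.4, 33.1 and 81.1 FPKM in Dnmt3-deficient libraries. The genotypes overlapped, and 1 Dnmt3-deficient library was above the rest. The interval of -0.090 to 1.14 still allowed Bcl6 to differ by up to 2.21-fold. Mef2b, which activates Bcl6, was at 253, 235 and 228 FPKM in Dnmt3-sufficient against 176, 243 and 252 FPKM in Dnmt3-deficient libraries, with at most 1.35-fold allowed. For Mef2b the bound was 2.35-fold with the 12 nB and GCB libraries and 3.25-fold with all 18. Bach2, which delays plasma cell differentiation, was at 11, 15.5 and 14.5 FPKM in Dnmt3-sufficient against 14.2, 17.5 and 19.3 FPKM in Dnmt3-deficient libraries. Its genotypes overlapped, and its interval was -0.24 to 0.83. For Pou2af1, a coactivator of octamer factors, Irf8 and Pax5, the largest differences allowed were 1.66-fold, 1.62-fold and 1.76-fold. The narrowest interval of the list was that of Klhl6, at -0.44 to -0.021, and the widest that of Rel, at -0.40 to 1.42.

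Among the chromatin regulators, Ezh2 is the methyltransferase for H3K27 that germinal center B cells need for expansion. It was at 77.7, 50 and 59.8 FPKM in Dnmt3-sufficient against 76.5, 51.2 and 48 FPKM in Dnmt3-deficient libraries, and its genotypes overlapped. At most 1.5-fold was allowed for it, and 4.46-fold with all 18 libraries in the fit. Kmt2d and Crebbp, which activate enhancers, were low, with 4.96, 5.13 and 4.83 FPKM in Dnmt3-sufficient against 4.39, 4.9 and 4.68 FPKM in Dnmt3-deficient libraries for Kmt2d, and at most 1.66-fold and 1.86-fold allowed. Over the 19 tested members the median difference was 0.023, and 16 had a 2-fold difference excluded. Hmgb2 had the narrowest interval, -0.21 to 0.20, and Kdm6a the widest, -0.71 to 1.33.

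The machinery of hypermutation and class switching was present in both genotypes. Polh, the polymerase that writes mutations at A and T bases, was at 68.2, 51.8 and 49.2 FPKM in Dnmt3-sufficient against 51, 43.3 and 42.8 FPKM in Dnmt3-deficient libraries. The genotypes overlapped for Polh, and at most 1.62-fold was allowed. Msh6, a mismatch recognition protein, allowed at most 1.94-fold. Ung, the glycosylase that removes uracil from DNA, was low and variable at 6.72, 4.82 and 2.29 FPKM in Dnmt3-sufficient against 5.31, 2.47 and 11 FPKM in Dnmt3-deficient libraries, and its interval of -0.77 to 1.33 was the widest of the list. Of the 41 members, all tested, 35 had a 2-fold difference excluded and the median was -0.046.

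Division genes had narrow intervals. Of 40 mitosis genes, 39 had a 2-fold difference excluded, and of 32 DNA replication genes 30, with list medians of 0.026 and -0.12. Top2a, which untangles replicated chromosomes, was at 231, 259 and 253 FPKM in Dnmt3-sufficient against 249, 266 and 252 FPKM in Dnmt3-deficient libraries. Ccnb1, the cyclin of mitotic entry, was at 407, 382 and 332 FPKM in Dnmt3-sufficient against 360.1, 339 and 354 FPKM in Dnmt3-deficient libraries. Mki67, a marker of cycling cells, was at 82.5, 82.5 and 101 FPKM in Dnmt3-sufficient against 111, 99.3 and 55.6 FPKM in Dnmt3-deficient libraries. In all these genes the genotypes overlapped, and at most 1.23-fold, 1.26-fold and 1.49-fold was allowed. For Plk1, a mitotic kinase, at most 1.35-fold was allowed. Rrm2, the regulated subunit of ribonucleotide reductase, was at 527, 598 and 569 FPKM in Dnmt3-sufficient against 586, 534 and 571 FPKM in Dnmt3-deficient libraries. Its interval of -0.22 to 0.22 was the narrowest of the replication list. The helicase subunits Mcm2 and Mcm5 allowed at most 1.24-fold and 1.3-fold.

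Within the replication list 22 of 32 differences were negative. Of the 32, 5 had an unadjusted p under 0.05, all of them lower in Dnmt3-deficient GCB, though none was called. Of all tested genes 5.87% had such a p, 284 of them higher and 294 lower. The direction of the list was not tested. Tk1, thymidine kinase, was at 201, 185 and 200.3 FPKM in Dnmt3-sufficient against 139.8, 151 and 112 FPKM in Dnmt3-deficient libraries. Tyms, thymidylate synthase, was at 86.8, 78.7 and 69 FPKM in Dnmt3-sufficient against 66.2, 52.4 and 53.4 FPKM in Dnmt3-deficient libraries. Both make thymidine nucleotides, and in both the genotypes did not overlap. The differences were -0.55 ± 0.14 (SE) for Tk1 and -0.44 ± 0.17 (SE) for Tyms, with adjusted p = 0.792 and 0.841. Gins4, a subunit of the replicative helicase, had a difference of -0.72 ± 0.20 (SE), and Rfc2 and Pold1 had -0.28 and -0.38. These were small next to the level that GCB kept above nB, where Tk1 was at 13.4, 11.1 and 20.8 FPKM in Dnmt3-sufficient and 7.77, 12.5 and 16.5 FPKM in Dnmt3-deficient libraries.

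Cell cycle entry was measured less well, with 14 of 22 tested genes excluded for a 2-fold difference and a median of -0.0012. Myc, which is induced in cells that receive T cell help, was at 37.8, 28.1 and 30 FPKM in Dnmt3-sufficient against 20.2, 24.2 and 27.6 FPKM in Dnmt3-deficient libraries. The Dnmt3-deficient libraries lay below the others, and the interval of -0.86 to 0.065 held 0. Ccnd3, the cyclin D of dark zone cycling, allowed at most 1.59-fold, E2f1 at most 2.21-fold and the inhibitor Cdkn1b at most 1.85-fold. Cdk4 had the narrowest interval, -0.59 to -0.091, and Cdkn1a the widest, -1.27 to 1.01.

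The receptors that place cells in the follicle and its zones were expressed in both genotypes. Cxcr5, the receptor for the follicular chemokine, was at 114, 80.4 and 116 FPKM in Dnmt3-sufficient against 134, 107 and 106 FPKM in Dnmt3-deficient libraries. Cxcr4, which holds cells in the dark zone, was at 20.8, 19.4 and 20.6 FPKM in Dnmt3-sufficient against 27, 24.3 and 22.6 FPKM in Dnmt3-deficient libraries. The Cxcr4 values of Dnmt3-deficient GCB lay above the others, with a difference of 0.27 and an interval of -0.17 to 0.70. S1pr2, which confines cells to the germinal center through Gna13, was at 98, 95.5 and 138 FPKM in Dnmt3-sufficient against 80, 84.5 and 112 FPKM in Dnmt3-deficient libraries. At most 1.47-fold was allowed for Cxcr5, 1.59-fold for S1pr2 and 1.42-fold for Gna13. Receptors that lead cells out of the germinal center were low and had wide intervals: Gpr183 allowed up to 2.41-fold, Ccr7 up to 4.12-fold and S1pr1 up to 4.26-fold. The added 1 FPKM narrows such bounds for low genes, so they do not limit the change in FPKM itself. In all, 14 of 25 genes of the list had a 2-fold difference excluded, and the median was -0.080. Rac2 had the narrowest interval, -0.28 to 0.12.

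Genes of the light zone are induced by antigen and CD40. Cd83, a light zone surface marker, was at 286, 212 and 288 FPKM in Dnmt3-sufficient against 244, 192 and 327 FPKM in Dnmt3-deficient libraries. Cd40, the receptor for the T cell signal, was at 85.6, 97 and 130.4 FPKM in Dnmt3-sufficient against 115, 84.3 and 82 FPKM in Dnmt3-deficient libraries. Neither gene separated the genotypes, and at most 1.4-fold and 1.49-fold was allowed. Cd86, a costimulatory ligand for T cells, was at 91.9, 95.1 and 93.4 FPKM in Dnmt3-sufficient against 101, 139 and 178 FPKM in Dnmt3-deficient libraries. The Dnmt3-deficient libraries were all above the others, but the spread among them was wide, and the difference of 0.54 ± 0.19 (SE) had adjusted p = 0.825. Nfkbia, a target of NF-kB, was lower in all 3 Dnmt3-deficient libraries with a difference of -0.26 and an interval of -0.58 to 0.050, and it allowed no more than 1.49-fold. Bhlhe40, a transcription factor that follows activation, was at 9.18, 4.29 and 5.25 FPKM in Dnmt3-sufficient against 0.146, 1.93 and 2.78 FPKM in Dnmt3-deficient libraries. It did not overlap, and its difference of -1.58 ± 0.48 (SE) had adjusted p = 0.792. Of 25 tested genes 16 had a 2-fold difference excluded and the median was -0.065. Egr2 had the widest interval of this list, at -1.68 to 0.89.

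Among the genes by which B cells give and receive T cell help, Il21r separated the genotypes. It encodes the receptor for IL-21, the cytokine that follicular helper T cells supply, and was at 88, 77.9 and 91.7 FPKM in Dnmt3-sufficient against 57.6, 45.5 and 53 FPKM in Dnmt3-deficient libraries. The Dnmt3-sufficient mean was 1.65 times the Dnmt3-deficient mean, with no overlap, and the difference of -0.72 ± 0.16 (SE) had adjusted p = 0.792. Il4ra, the receptor for the other main helper cytokine, was at 32.7, 27.3 and 34.5 FPKM in Dnmt3-sufficient against 23.1, 24.6 and 34.6 FPKM in Dnmt3-deficient libraries. Its genotypes overlapped and at most 1.61-fold was allowed. Icosl, the ligand through which B cells engage helper T cells, allowed at most 1.88-fold, and Efnb1, which regulates contact with them, at most 2.56-fold. Of 24 tested genes 15 had a 2-fold difference excluded and the median was 0.044. Cd48 had the narrowest interval, -0.27 to 0.24, and Il27ra the widest, -2.75 to 0.053.

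Antigen presentation genes were abundant and their intervals were narrow. Cd74, the invariant chain of MHC class II, was at 6756, 5849 and 6825 FPKM in Dnmt3-sufficient against 6339, 6141 and 5714 FPKM in Dnmt3-deficient libraries. H2-Ab1 and H2-Aa, which form the class II molecule, allowed at most 1.24-fold and 1.23-fold, and Cd74 at most 1.2-fold. H2-Oa, a subunit of the modulator of peptide loading, was at 142, 140.3 and 176 FPKM in Dnmt3-sufficient against 123, 119 and 142 FPKM in Dnmt3-deficient libraries. Ciita, the coactivator that class II genes need, was at 37.5, 44.2 and 49 FPKM in Dnmt3-sufficient against 42.6, 44.7 and 65.3 FPKM in Dnmt3-deficient libraries. In none of these were the genotypes apart, and at most 1.48-fold was allowed for H2-Oa and 1.57-fold for Ciita. Of 20 genes 17 had a 2-fold difference excluded, and the median was -0.071. Ctsl, a lysosomal protease near the filter, had the widest interval, -0.23 to 1.92.

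In the B cell receptor pathway, Cd79a and Cd79b are the signal chains of the receptor. Cd79a was at 1333, 1143 and 1323 FPKM in Dnmt3-sufficient against 1261, 1253 and 1040.5 FPKM in Dnmt3-deficient libraries. Cd79b was at 1767, 1555 and 1826 FPKM in Dnmt3-sufficient against 1885, 1823 and 1728 FPKM in Dnmt3-deficient libraries. At most 1.25-fold and 1.21-fold was allowed for these, and 1.2-fold for the adaptor Blnk. Syk, the kinase that binds the signal chains, was at 49.2, 54.9 and 62 FPKM in Dnmt3-sufficient against 70.8, 71.4 and 67.7 FPKM in Dnmt3-deficient libraries. Its Dnmt3-deficient libraries lay above the others, with a difference of 0.34 and an interval of -0.010 to 0.69. Btk, the kinase next in line, was at 80.3, 106 and 114 FPKM in Dnmt3-sufficient against 99.2, 101 and 204 FPKM in Dnmt3-deficient libraries. It overlapped, and 1 Dnmt3-deficient library stood above the rest. Of 27 genes 25 had a 2-fold difference excluded, and the list median was 0.13. Of the receptors and phosphatases that restrain this pathway, Ptpn6 (SHP-1) was at 458, 477 and 530.0 FPKM in Dnmt3-sufficient against 414, 393 and 551 FPKM in Dnmt3-deficient libraries. It allowed at most 1.34-fold, and Cd22, Fcgr2b and Inpp5d (SHIP) at most 1.35-fold, 1.42-fold and 1.39-fold. For this list the median over 17 tested genes was 0.10, with a 2-fold difference excluded for 11, and the intervals ran from -0.078 to 0.46 for Ptprc to -0.76 to 1.98 for Lair1.

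**Figure D3:**
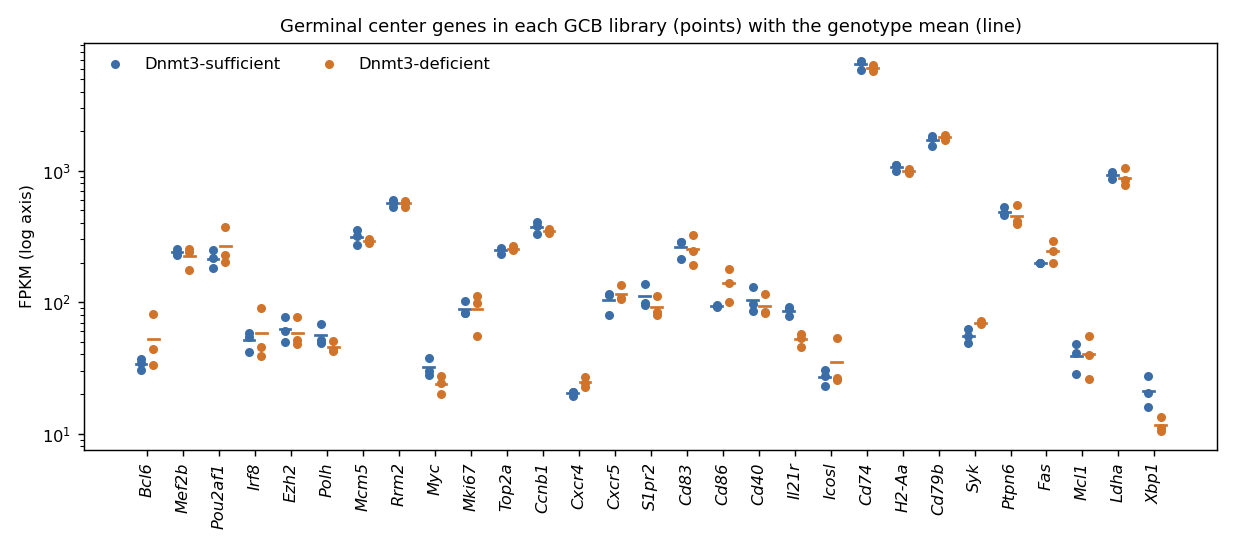
FPKM on a log axis of 29 germinal center genes in each of the 3 Dnmt3-sufficient and 3 Dnmt3-deficient GCB libraries (points), with the genotype mean (line). The genotypes overlap for most genes. Il21r, Xbp1 and Myc are lower in all 3 Dnmt3-deficient libraries, and Cxcr4, Syk and Cd86 are higher in all 3.

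Genes of survival and metabolism were expressed in both genotypes. Mcl1, the survival protein that germinal center B cells depend on, was at 28.2, 48 and 40.9 FPKM in Dnmt3-sufficient against 55.3, 39.5 and 26.2 FPKM in Dnmt3-deficient libraries. Bcl2, which these cells silence, was under 1 FPKM in all 6 libraries and was not tested. Tnfrsf13c, the BAFF receptor, allowed at most 1.24-fold, Bax at most 1.62-fold and the death sensor Bcl2l11 at most 2.12-fold, and over 25 tested survival genes 15 had a 2-fold difference excluded with a median of -0.021. Ldha, lactate dehydrogenase, was at 943, 983 and 864 FPKM in Dnmt3-sufficient against 845, 1041 and 773 FPKM in Dnmt3-deficient libraries. At most 1.26-fold was allowed for it and 1.29-fold for Pkm, 1.67-fold for the glucose transporter Slc2a1 and 1.48-fold for the transferrin receptor Tfrc. Over 26 anabolic genes the median was -0.035, and 24 had a 2-fold difference excluded. The widest intervals of these lists were -1.39 to 1.14 for Bik and -0.77 to 1.25 for Hk2.

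Of the plasma cell program, Prdm1 and Sdc1 were at or near 0 in both genotypes, whereas other members were expressed. Prdm1, the repressor that drives the fate, was at 0.783, 0.517 and 0.12 FPKM in Dnmt3-sufficient against 0, 0 and 0.478 FPKM in Dnmt3-deficient libraries. Sdc1, which encodes the plasma cell marker CD138, was at 0.0387, 0 and 0 FPKM in Dnmt3-sufficient against 0, 0 and 0 FPKM in Dnmt3-deficient libraries. Neither passed the filter. Of the 20 tested members of the list 14 had a negative difference, and the median was -0.20 beside 0.0081 over all genes. An unadjusted p under 0.05 was found for 4 of 20, all lower, with none called, beside 5.87% of all tested genes. The direction of the list was not tested. Xbp1, the factor of the secretory program, was at 27.4, 15.8 and 20.3 FPKM in Dnmt3-sufficient against 10.5, 13.3 and 10.9 FPKM in Dnmt3-deficient libraries. Ly6c2, a surface protein of plasma cells, was at 36, 7.71 and 12.2 FPKM in Dnmt3-sufficient against 7.22, 2.85 and 2.16 FPKM in Dnmt3-deficient libraries. In both the genotypes did not overlap, and adjusted p was 0.792 for each. The other members of the 4 were Derl3 at -0.53 and Eaf2 at -0.32. Jchain, the joining chain of secreted IgM and IgA, overlapped and allowed at most 1.41-fold, Mzb1 at most 1.25-fold and Irf4 at most 2.38-fold. Fkbp11 had the widest interval, -2.18 to 0.93. Whether fewer cells on the way to plasma cells or less RNA per cell lay behind such values cannot be told apart in bulk samples.

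Over the 27 genes of naive and memory B cells the median level was 3.45 FPKM in Dnmt3-sufficient and 4.16 FPKM in Dnmt3-deficient libraries. A 2-fold difference was excluded for 7 of 21 tested genes, with a median margin of 0.76 and a median difference of 0.082. Cd38, which mouse germinal center B cells lose, was at 5.09, 2.92 and 5.15 FPKM in Dnmt3-sufficient against 6.74, 4.37 and 4.5 FPKM in Dnmt3-deficient libraries. Fcer2a (CD23) was at 63.3, 38.4 and 64 FPKM in Dnmt3-sufficient against 33.8, 30.2 and 66.4 FPKM in Dnmt3-deficient libraries. Klf2 allowed up to 2.52-fold and Hhex, a factor of memory cells, up to 2.55-fold. Btg2 had the narrowest interval, -0.037 to 0.67.

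The second question was whether Dnmt3-deficient GCB had taken on the germinal center state from nB. The nB came from unimmunized mice and were not pooled, unlike the GCB. Cell state, immunization and pooling therefore cannot be told apart in this contrast. Most genes of mitosis and DNA replication rose and most genes of naive and memory cells fell in both genotypes. In Dnmt3-sufficient mice 1380 genes were higher (12.5% of 11018 tested) and 1834 lower (16.6%) in GCB than nB, and in Dnmt3-deficient mice 1199 were higher (10.9%) and 1644 lower (14.9%). Called higher in both genotypes were 954 genes, 69.1% of the first list and 79.6% of the second, and called lower in both were 1171 genes, 63.8% and 71.2%. Of the 1380 and 1834 genes called in Dnmt3-sufficient mice, 1348 and 1792 had the same sign in Dnmt3-deficient mice, where no library is shared. The balance of higher and lower depended on scaling: by median of ratios it was 1639 higher and 1550 lower in Dnmt3-sufficient and 1443 and 1389 in Dnmt3-deficient mice, and the median over all genes moved from -0.14 to -0.017 and from -0.15 to -0.028.

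By function, 39 of 40 mitosis genes and 29 of 32 replication genes were higher in GCB in each genotype, and these were shared in full. The median rise over nB was 5.17 and 4.79 on the log2(FPKM + 1) scale for mitosis genes and 3.08 and 2.80 for replication genes, in Dnmt3-sufficient and Dnmt3-deficient mice in turn. Of 41 hypermutation genes 18 and 16 were higher, 15 of them in both, and 2 and 0 were lower. Of 30 transcription factors the same 6 were higher in both genotypes, while 9 were lower in Dnmt3-sufficient and 4 of those 9 in Dnmt3-deficient mice. Of 26 naive and memory genes 20 and 19 were lower, 19 of them in both. Of 26 T cell help genes 13 and 12 were lower, 12 of them in both, and 4 and 3 were higher. Of 20 antigen presentation genes 8 and 7 were lower, 5 of them in both, and 0 were higher.

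The difference between the genotypes in this transition was tested directly by the interaction of genotype and cell type, and 0 of 11018 genes (0%) were called by limma, with a lowest adjusted p of 0.374 and 596 genes at an unadjusted p under 0.05. The interaction interval had a median margin of 1.13, a factor of 2.19, so the bound is looser than within GCB. With a pseudocount of 0.1 there was 1 call, the spindle gene Ckap2, at -4.61.

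The third question was which genes came closest to a difference. The 19 genes named here are from the 10 higher and 10 lower genes with the smallest unadjusted p, without overlap and with a mean of at least 5 FPKM in the higher genotype. They were chosen by the contrast itself, so their GCB values are descriptions, and their check is the same contrast in the 6 nB libraries, fitted alone. Higher in Dnmt3-deficient GCB were Pde2a, Trim12a, Hbb-bh1, Fam117a, Gm8369, Pnpt1, Snord53, Snord45b, Acaa1a and Lgals9. Lower were Cryz, 2210013O21Rik, Nat9, Il21r, Gstm4, Gpat2, Snora28, Nme6 and Trmu. Of the 19, 4 lie on chromosome 7, and of these 3 could be tested in nB, all 3 with the sign they had in GCB and 1 with an unadjusted p under 0.05 (5.13% of all nB genes were under 0.05). Of the 15 others, 14 could be tested in nB, 3 with the same sign and 11 with the opposite one. Among these 14, 1 had an unadjusted p under 0.05 in nB, Snord45b, with the opposite sign. Most nB intervals of the named genes held 0, those of Pde2a and Il21r among them. Counts of signs therefore cannot show that genes repeat or reverse in nB, and the split by chromosome was not tested.

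**Figure D4:**
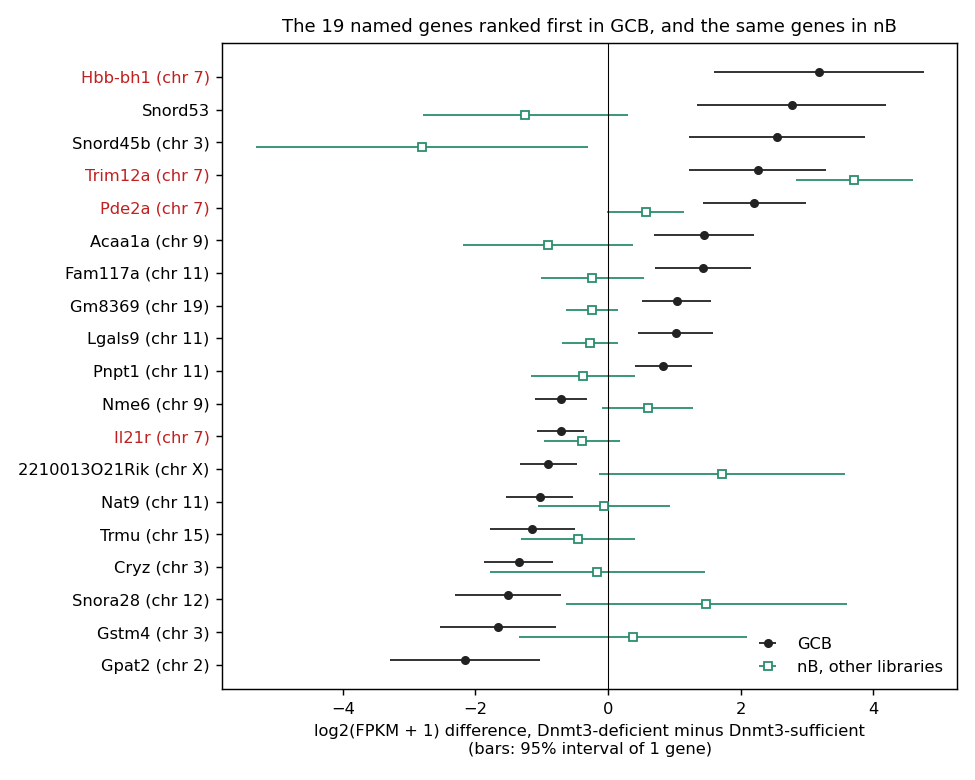
Difference between the genotypes, Dnmt3-deficient minus Dnmt3-sufficient, with the 95% interval of each gene, on the log2(FPKM + 1) scale, for the 19 named genes ranked first in GCB (filled circles) and for the same genes in the 6 nB libraries (open squares). Genes of chromosome 7 have red labels. The sign in nB is that of GCB for the 3 chromosome 7 genes with an nB value and for 3 of 14 others. Most nB intervals hold 0, so these signs are uncertain.

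Off chromosome 7, Cryz, a quinone oxidoreductase, was at 40.3, 31.1 and 51.6 FPKM in Dnmt3-sufficient against 16.7, 12.7 and 16.3 FPKM in Dnmt3-deficient libraries. Lgals9, which encodes a galectin, was at 55.4, 27.6 and 37.1 FPKM in Dnmt3-sufficient against 83.2, 60.6 and 97.8 FPKM in Dnmt3-deficient libraries. Pnpt1, an RNA-processing enzyme of mitochondria, was at 20.2, 20.3 and 25.4 FPKM in Dnmt3-sufficient against 40.4, 36.5 and 42.3 FPKM in Dnmt3-deficient libraries. The differences in GCB were -1.35, 1.02 and 0.83, and those in nB were -0.16, -0.27 and -0.38, so that Lgals9 and Pnpt1 turned in sign. The nB intervals of these genes held 0. Adjusted p in GCB was 0.389 for Cryz and 0.792 for Lgals9 and Pnpt1. Snord53, Snord45b and Snora28 encode small nucleolar RNAs, which lie within other genes, and their reads may be shared with those. Snord53 rested on 1, 1 and 0 reads in Dnmt3-sufficient against 19, 2 and 8 reads in Dnmt3-deficient GCB libraries. Snord45b was at 0, 4.99 and 0 FPKM in Dnmt3-sufficient against 10.1, 8 and 11 FPKM in Dnmt3-deficient libraries. These Snord45b values came from only 0, 2 and 0 against 4, 3 and 4 reads. In nB its difference was -2.81, against 2.55 in GCB.

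On chromosome 7, Pde2a, a phosphodiesterase for cAMP and cGMP at chr7:108570212-108661340 (mm9), was at 1.98, 1.32 and 2.35 FPKM in Dnmt3-sufficient against 8.42, 11.4 and 18.3 FPKM in Dnmt3-deficient libraries. In nB it was at 22.8, 30.6 and 22.4 FPKM in Dnmt3-sufficient and 37.1, 31.9 and 44.7 FPKM in Dnmt3-deficient libraries. It was higher in every Dnmt3-deficient library of both cell types, by 2.20 in GCB and 0.57 in nB. Trim12a, of the TRIM family of antiviral factors, at chr7:111448408-111463980 (mm9), was at 0.0615, 0.078 and 1.57 FPKM in Dnmt3-sufficient against 5.63, 9.45 and 3.65 FPKM in Dnmt3-deficient libraries. In nB it was at 0.778, 1.09 and 1.06 FPKM in Dnmt3-sufficient and 21.1, 30.3 and 24.1 FPKM in Dnmt3-deficient libraries. In BMPC it was at 0.0791, 0 and 1.58 FPKM in Dnmt3-sufficient and 6.49, 2.18 and 7.36 FPKM in Dnmt3-deficient libraries. The genotypes did not overlap in any of the 3 cell types, and the nB difference of 3.71 was called, at adjusted p = 0.0101. Reads of Trim12a and its near copies Trim12c and Trim30 genes may be split between them. Il21r, described above, lies at chr7:132746943-132777084 (mm9), and was at 68.2, 124 and 148 FPKM in Dnmt3-sufficient and 84.7, 87.3 and 74.4 FPKM in Dnmt3-deficient libraries of nB, where the genotypes overlapped.

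The hemoglobin genes of the same chromosome, Hbb-b1 at chr7:110975048-110976610 (mm9) and Hbb-bh1 next to it, are related genes, and reads of Hbb-b1 may be split with its near copy Hbb-bs. Hbb-b1 was at 0.188, 0 and 10.6 FPKM in Dnmt3-sufficient against 16, 36.6 and 11.2 FPKM in Dnmt3-deficient libraries. In nB it was at 0.237, 0 and 0.177 FPKM in Dnmt3-sufficient and 3.97, 27.4 and 71.8 FPKM in Dnmt3-deficient libraries. The genotypes did not overlap for Hbb-b1 in either cell type, although the Dnmt3-sufficient GCB library 3 came close to the Dnmt3-deficient ones. Hbb-bh1 was at 0.246, 0 and 6.95 FPKM in Dnmt3-sufficient against 16.5, 40 and 9.28 FPKM in Dnmt3-deficient GCB. In nB Hbb-bh1 was at 0 FPKM in all 6 libraries, so its GCB difference had no check there. The 5 erythroid markers found in the table summed to 0.352 to 3.53 FPKM in Dnmt3-sufficient and 3.01 to 11.6 FPKM in Dnmt3-deficient GCB, and their part in the result was not tested. The alpha chain Hba-a2, on another chromosome, was at 2.4, 0 and 0 FPKM in Dnmt3-sufficient against 0.1, 0 and 0.109 FPKM in Dnmt3-deficient libraries, which overlap. In nB Hba-a2 was at 0, 0.808 and 0 FPKM in Dnmt3-sufficient and 11.7, 59.6 and 117 FPKM in Dnmt3-deficient libraries, and there it was called together with Hbb-bs and Trim12a, the 3 calls of 10257 genes (0.0292%) in that comparison.

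These positions led to a count over the chromosome, made after the values were seen. Of 9840 tested genes 8990 had a single place in the mm9 annotation. On chromosome 7 63 of 697 genes (9.04%) had an unadjusted p under 0.05, against 473 of 8293 (5.70%) on all others, where single chromosomes ran from 1.41% to 7.92%. In nB chromosome 7 held 39 of 732 (5.33%), and all other genes 454 of 8653 (5.25%). The strain is of mixed background, so that alleles inherited with Cre and the loss of Dnmt3a and Dnmt3b cannot be told apart for such genes.

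Promoters were looked at because DNA methylation sits on CpG. RefSeq promoters of the GRCm38.p6 build, 250 bases before to 50 after each start, matched 7878 of 9840 tested genes (80.1%) by gene ID. The 250 bases before the start of 3 genes of the germinal center show the range, with each CpG in capitals, all written 5′ to 3′ along the gene. Gcsam, a marker of germinal center B cells (chr16:45610190-45610439, plus strand), holds 3 CpG and Il21r (chr7:125603179-125603428, plus strand) holds 4, whereas Ezh2 (chr6:47595031-47595280, minus strand) holds 23.
Gcsam: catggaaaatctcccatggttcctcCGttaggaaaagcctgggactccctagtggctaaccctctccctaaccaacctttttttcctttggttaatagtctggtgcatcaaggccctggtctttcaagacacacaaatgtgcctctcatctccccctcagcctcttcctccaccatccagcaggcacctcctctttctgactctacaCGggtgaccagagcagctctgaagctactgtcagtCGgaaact
Il21r: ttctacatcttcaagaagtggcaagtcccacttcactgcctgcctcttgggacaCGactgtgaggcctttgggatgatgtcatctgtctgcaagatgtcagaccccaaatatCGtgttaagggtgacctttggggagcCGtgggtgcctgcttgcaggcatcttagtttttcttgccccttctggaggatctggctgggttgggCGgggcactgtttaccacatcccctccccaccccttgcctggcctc
Ezh2: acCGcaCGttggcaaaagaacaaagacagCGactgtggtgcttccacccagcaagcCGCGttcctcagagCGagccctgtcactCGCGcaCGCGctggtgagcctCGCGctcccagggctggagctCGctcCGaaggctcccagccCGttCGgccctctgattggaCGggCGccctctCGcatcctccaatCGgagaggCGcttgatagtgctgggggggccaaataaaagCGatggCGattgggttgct

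The ratio of observed to expected CpG over the 300 bases was used to cut the 7878 genes into 3 equal classes of 2626, with a median of 12, 23 and 32 CpG in those 300 bases. The median difference between the genotypes was 0.012 in the class poorest in CpG, 0.0019 in the middle class and 0.012 in the richest, with 0 genes called in each. In the poorest class, to which Gcsam and Il21r belong, 193 genes (7.35%) had an unadjusted p under 0.05, 98 of them higher and 95 lower in Dnmt3-deficient GCB. The middle and the richest class had 154 (5.86%) and 113 (4.30%). Expression and precision moved with the class: the median level was 8.13, 11.2 and 12.3 FPKM and the median margin 0.74, 0.66 and 0.64 from the poorest to the richest. Their part in the shares was not tested.

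Genes that lose repression in cells without DNA methylation were looked at too. Of 32 germline genes listed, 31 were in the table, 20 of them at 0 in all 6 GCB libraries and 25 under 1 FPKM in all 6, and 5 were tested with 0 called. A 2-fold difference was excluded for 1 of the 5. Over the 5 the median difference was 0.62 and the median margin 0.97. The sums were 33.5 to 48 FPKM in Dnmt3-sufficient and 35.5 to 38.3 FPKM in Dnmt3-deficient libraries, mostly the X-linked Xlr4a. Its relative Xlr3a was at 2.87, 3.27 and 1.35 FPKM in Dnmt3-sufficient against 5.92, 4.59 and 5.33 FPKM in Dnmt3-deficient libraries, without overlap, with a difference of 0.89 and adjusted p = 0.841. Xlr genes are near copies and may share reads. Of 27 interferon-stimulated genes tested, 0 were called, 0 had an unadjusted p under 0.05 and the median was 0.058. They were measured less well than the average gene, with a median margin of 0.93 beside 0.68. A 2-fold difference was excluded for 12 of the 27 (44.4%), beside 60.9% of all tested genes. Of 18 genes that the study named in plasma cells, all tested in GCB, 0 were called, 3 had an unadjusted p under 0.05 (5.87% of all tested genes did) and 12 had a 2-fold difference excluded. The 3 were Cd86, the nuclear import factor Ipo11 and Ikzf5 of the Ikaros family. Ipo11 was at 15.3, 14.4 and 12.7 FPKM in Dnmt3-sufficient against 20.7, 23.5 and 22.7 FPKM in Dnmt3-deficient libraries. Ikzf5 was at 5.36, 5.55 and 8.08 FPKM in Dnmt3-sufficient against 12.7, 9.78 and 9.64 FPKM in Dnmt3-deficient libraries. All 3 were higher in every Dnmt3-deficient library, at adjusted p = 0.798 for Ipo11 and 0.841 for Ikzf5. In BMPC Ipo11 went the other way, at 7.42, 10.4 and 10.3 FPKM in Dnmt3-sufficient and 0.509, 0 and 0 FPKM in Dnmt3-deficient libraries. Ikzf5 in BMPC was at 2.07, 0 and 1.32 FPKM in Dnmt3-sufficient and 19.9, 17.1 and 8.95 FPKM in Dnmt3-deficient libraries. Cd86 in BMPC was listed at 0 FPKM in all 3 Dnmt3-sufficient libraries and at 0, 16.6 and 7.82 FPKM in Dnmt3-deficient libraries. The study chose these genes on libraries of this series.

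Sex gave calls in the same libraries, with 4 from females against 2 from males, a less even split than that of genotype. With sex in the place of genotype there were 3 calls of 9840 (0.0305%): Xist at -3.70, Ddx3y at 4.97 and Eif2s3y at 6.40, male minus female, with adjusted p = 0.0021, 0.000392 and 2.90e-05 (limma, Benjamini-Hochberg). All are on or controlled from the sex chromosomes. No autosomal gene was called between the sexes, and 0 genes were called without either male library.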

How the data were processed

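RNA-seq of 18 libraries in 6 groups of 3 was used, and the 6 GCB libraries were compared by genotype. The authors mapped reads to mm9 with TopHat, counted reads over the exons of UCSC KnownGenes with summarizeOverlaps, and deposited FPKM values. Whether counting used the strand is not given in the sources used here, so antisense, overlapping and near-identical genes are uncertain. The submitters' processing notes name R 3.2.2 and edgeR 3.12.1. Their columns of fold changes and adjusted p-values between groups were not used. FPKM times exon length came out as whole reads (within 0.01 reads) for 100% of values, from which depth was recovered. The table held 21761 genes.

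The test was limma 3.58.1 (R 4.3.3) on log2(FPKM + 1), with genes above 1 FPKM in at least 2 of the 6 libraries, an intensity trend, two-sided tests and Benjamini-Hochberg adjustment over all genes tested. A gene was called at an adjusted p of 0.05 or less with a difference of at least 1. A fold on this scale understates the change of low genes. A 2-fold difference was excluded where both one-sided tests against a bound of 1 passed at an adjusted p of 0.05. The fits to nB, to nB with GCB (11018 genes) and to sex used the same steps. The GCB fit was also run on simulated counts with the same dispersion for every gene. That setting is simpler than the data, so it is no check of the intervals given here. Exact permutation of 3 against 3 libraries allows no p below 0.1 and was not used.

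The genes named are the 10 higher and 10 lower with the smallest p as the report gives them, preset core members of each list, the narrowest and widest interval of each function list, and called genes of the sex and interaction terms. The members, gene lists and tests were chosen with earlier results of these data known. Genes outside that rule (Tk1, Tyms, Gins4, Rfc2, Pold1, Bhlhe40, Ly6c2, Derl3, Eaf2, Xlr3a, Ipo11, Ikzf5, Flt3, Hba-a2, Hbb-b1) and the count over chromosome 7 were chosen after their values were seen. Immunoglobulin genes were not used here, and a few genes are not reported here. Positions come from the mm9 annotation of GENCODE M1, and promoters from RefSeq. Alternatives were another pseudocount, other filters, median of ratios, the replicate block, sex, quality weights, all 18 or 12 libraries, voom on recovered reads, other thresholds and leaving out each library. Python 3.11.15 with pandas 2.3.3 and matplotlib 3.10.9 made summaries and figures.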

Additional observations from a re-analysis of the deposited data

How the results depend on the processing

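The count of 0 calls between the genotypes in GCB stayed 0 under 16 of 18 alternatives. The 12 nB and GCB libraries in 1 fit gave 1 (Pde2a, adjusted p = 0.0400 by limma), and leaving out each library in turn gave 0 to 1, the 1 being Snora34 without Dnmt3-deficient replicate 2. The count of genes with a 2-fold difference excluded ran from 3957 without Dnmt3-sufficient replicate 2 to 4805 when libraries were left out. It was 533 with all 18 libraries in the fit, whose shared spread includes BMPC, 3035 at an adjusted p of 0.01 and 396 for a bound of 1.5-fold, and with these 3 and leaving out Dnmt3-sufficient replicate 2 set aside, it stayed within 1.5 times of 5996 in the other 15 alternatives. The largest difference allowed moved by more than the replicate SD in 63 of 78 core genes with all 18 libraries, in 19 with the 12 nB and GCB libraries and in at most 8 under each other alternative. The median margin was 1.28 with all 18 libraries and stayed between 0.59 and 0.80 otherwise. With all 18 libraries, 1673 genes were called between GCB and nB in Dnmt3-sufficient and 1511 in Dnmt3-deficient mice. The interaction gave 1 call with a pseudocount of 0.1. The sex term gave 1 call with FPKM above 3 in at least 3 libraries, and 0 to 3 when libraries were left out, with 0 without either male library. The cause of these moves was not tested. All 19 named genes kept their direction under every alternative run on them. The deviations of same-numbered libraries from their group means correlated at 0.026, 0.00079 and -0.019. No pairing by number was thus detected, though with 3 libraries per genotype it may have been missed. The fit with the replicate block gave 0 calls, 5863 exclusions and a median margin of 0.69. In that fit 650 genes had an unadjusted p under 0.05, against 578 without the block. Depth was not varied, and voom gave fewer exclusions in every bin of level, 663 against 1221 at 3 to 10 FPKM and 1511 against 1843 at 10 to 30 FPKM. No group of 3 libraries was searched for outliers.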
